A study of Arabidopsis thaliana with 12 samples.

Results

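The genes described here encode enzymes that remove superoxide and peroxides: the superoxide dismutases CSD1, CSD2, CSD3, MSD1, FSD1, FSD2 and FSD3, the ascorbate peroxidases APX1 and APX6, and the 1-cysteine peroxiredoxin PER1. They were taken by locus identifier, 10 of the 32833 genes in the count table. The list was made with earlier results of these data known. The libraries came from seeds of Arabidopsis thaliana in 4 groups of 3. They were mutant erf4-1 imbibed for 6 h, wild-type Col-0 imbibed for 6 h, erf4-1 dry, and Col-0 dry, and the mutant is in the Col-0 ecotype per the labels. All seeds were freshly harvested, and imbibition (water uptake) took place on wet filter paper. ERF4 is an ethylene response factor that acts as a transcriptional repressor. The labels call the mutant a knockout of ERF4 without naming the lesion, and its groups are called libraries labelled erf4.

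Superoxide dismutases turn superoxide into hydrogen peroxide and oxygen, and are classed by their metal: copper and zinc in the CSD proteins, manganese in MSD1 and iron in the FSD proteins. Ascorbate peroxidases then reduce hydrogen peroxide with ascorbate, while peroxiredoxins reduce peroxides through a reactive cysteine. Seeds meet reactive oxygen species when they dry and again when respiration resumes upon imbibition, and the 1-cysteine peroxiredoxin is known as a transcript of maturing embryos and of the aleurone.

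Total counts ranged from 31787283 to 42590777 per library, and 3 counts corresponded to 0.0604 to 0.121 CPM (counts scaled to library size with TMM factors). ERF4 stood at 1.67, 7.03 and 14.9 CPM in the imbibed libraries labelled erf4 and at 21.03, 15.7 and 17.0 CPM in imbibed Col-0. In dry seeds it stood at 3.88, 9.003 and 15.3 CPM in libraries labelled erf4, and at 15.9, 13.6 and 12.5 CPM in dry Col-0. Replicate 3 labelled erf4 thus stood near the Col-0 level in both states, against its label, and every direction between genotypes rests on the labels. The column headers carry a suffix letter of unstated meaning, b for dry replicate 1 labelled erf4 and dry replicates 1 and 2 of Col-0, and r for the other 9 libraries. The 9 seed markers, genes of storage proteins and oleosins, summed to at least 63252 CPM in every library and none of them was at 0. Whether the replicates are separate plants or harvests is not stated, and the p-values cover no more than the spread among these libraries, which may be technical.

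All 10 genes passed the filter on low counts, and their levels spanned a wide range. Per exonic length (RPKM, CPM per 1000 bases), PER1 was the most abundant of them in every group. It averaged 986 ± 167 RPKM in imbibed libraries labelled erf4, 1220.4 ± 226 RPKM in imbibed Col-0, 3426 ± 424 RPKM in dry libraries labelled erf4 and 5008 ± 423 RPKM in dry Col-0 (SD, n = 3 each). By mean RPKM it ranked 31st, 38th, 25th and 18th among the 18897 genes tested, in the same order of groups. FSD1, a plastid and cytosolic enzyme, was the least abundant in every group, at 2.67 ± 1.17, 1.08 ± 0.342, 2.60 ± 0.999 and 1.63 ± 0.435 RPKM in that order. Between them, CSD1 (cytosol), CSD2 (plastid) and MSD1 (mitochondria) held ranks 2 to 4 in all 4 groups, with means between 56.3 and 105.6 RPKM. Their order differed between groups. In dry seeds each of these 3 overlapped its neighbour in the order, while in imbibed libraries labelled erf4 MSD1 (102 ± 6.57 RPKM) lay above the other two, and in imbibed Col-0 CSD2 (69.4 ± 11.7 RPKM) lay below MSD1 (95.4 ± 2.32 RPKM) and overlapped CSD1 (105.6 ± 30.9 RPKM). FSD3, CSD3, APX6, APX1 and FSD2 filled ranks 5 to 9, with means between 7.83 and 43.2 RPKM. Neighbours among these 5 overlapped in most cases. The exceptions were CSD3 above APX6 and FSD3 above APX1 in imbibed Col-0, APX6 above FSD2 in dry libraries labelled erf4, and FSD3 above FSD2 in dry Col-0.

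**Figure D1:**
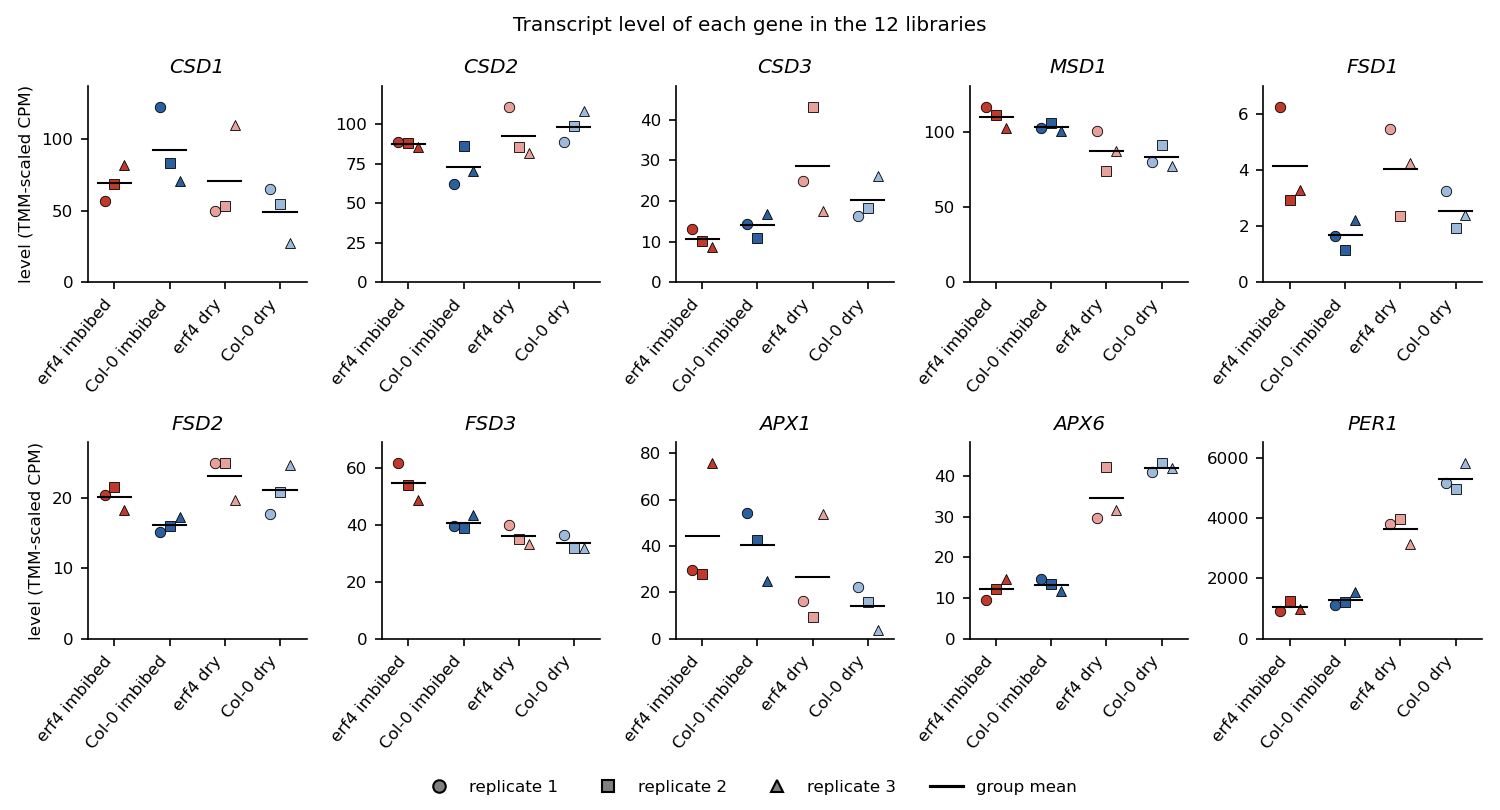
Levels of the 10 genes in TMM-scaled CPM (vertical axes, each from 0 on its own scale) in the 4 groups, with 1 point a library, the shape giving the replicate number and the line the group mean. PER1 and APX6 lie lower in all 6 imbibed libraries than in all 6 dry ones, while CSD1 and APX1 are spread widely within groups.

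Imbibition was compared with the dry state within each genotype by edgeR's quasi-likelihood test over all genes tested. PER1 and APX6 fell in both genotypes, CSD3 fell in libraries labelled erf4, and FSD3 and MSD1 rose in libraries labelled erf4. In Col-0 CSD1 rose and CSD2 and FSD2 fell, all close to the threshold. With the suffix letter as a covariate these 3 calls were lost (edgeR adjusted p = 0.128, 0.0943 and 0.058), and MSD1 and FSD3 were called in Col-0 (edgeR adjusted p = 0.011 and 0.0367). In libraries labelled erf4 the test called 5 of the 10 genes (2 higher, 3 lower), where it called 55.5% of all genes (28.4% higher, 27.2% lower). In Col-0 it called 5 (1 higher, 4 lower), where it called 52.5% of all genes (27.2% higher, 25.2% lower), so the shares of the members lay near the background. Imbibed and dry libraries did not overlap for 5 members in libraries labelled erf4 (2 higher, 3 lower), where this held for 58.5% of all genes (31.1% higher, 27.5% lower), and for 8 in Col-0 (4 higher, 4 lower), where it held for 65.8% (34.7% higher, 31.1% lower). The median log2 fold change of the 10 genes was -0.06 in libraries labelled erf4 and -0.41 in Col-0, and that of all genes tested was 0.04 and 0.05 in that order. No gene of the 10 was called for a difference between the genotypes in its imbibition response, a test that called 0% of all genes (0 of 18897 by edgeR, 1980 at an unadjusted p under 0.05, none of the 10 among these; 186 of all genes and none of the 10 by DESeq2). A fit with the replicate number as a block within each genotype, chosen after seeing the data, called 6 members in libraries labelled erf4 (3 higher, 3 lower) where it called 62.8% of all genes (32.3% higher, 30.5% lower). It called 8 in Col-0 (4 higher, 4 lower) against 60.1% of all genes (31% higher, 29% lower), and none for the difference of the responses, against 3.14% (0.863% higher, 2.28% lower).

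**Figure D2:**
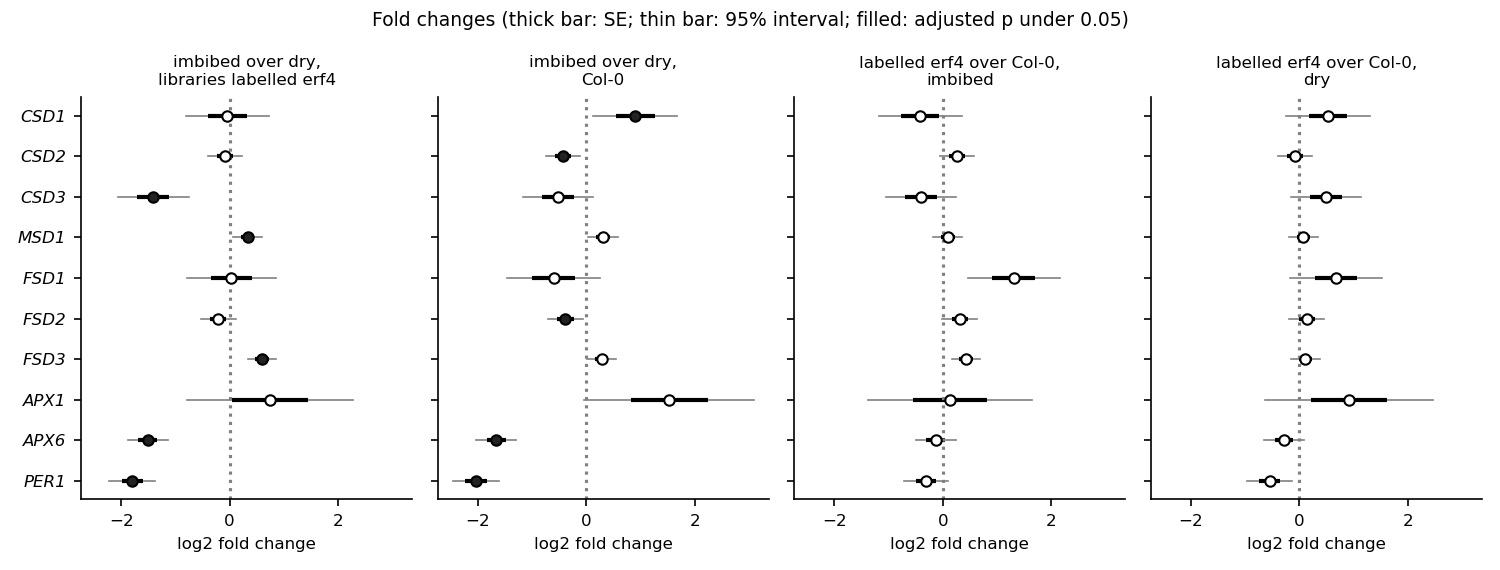
Log2 fold changes of the 10 genes (horizontal axis) in the imbibition contrasts of libraries labelled erf4 and of Col-0 and in the genotype contrasts of imbibed and of dry seeds. Thick bars are standard errors, thin bars 95% intervals, and filled points passed an adjusted p under 0.05: 5 in each imbibition contrast and none in either genotype contrast.

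The largest changes were those of the peroxidase genes PER1 and APX6. PER1 (AT1G48130; chromosome 1, 17780429 to 17781727, plus strand of TAIR10, 4 exons) had 914, 1246 and 973 CPM in imbibed libraries labelled erf4, against 3792, 3972 and 3120.4 CPM in dry ones. In Col-0 it had 1099, 1219 and 1560 CPM imbibed, against 5142, 4958 and 5809 CPM dry. Every imbibed library lay below every dry one. PER1 fell by 1.797 ± 0.20 on the log2 scale (SE) in libraries labelled erf4 (0.288 of the dry level, edgeR adjusted p = 7.22e-06) and by 2.04 ± 0.20 in Col-0 (0.244 of the dry level, edgeR adjusted p = 3.24e-06). In these bulk samples fewer cells of a type and less RNA per cell cannot be told apart, and CPM gives a share of the library, not an amount per seed.

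APX6 (AT4G32320; chromosome 4, 15602721 to 15605400, plus strand, 10 exons), an ascorbate peroxidase known for protecting maturing and germinating seeds from oxidative damage, moved the same way at a far lower level. It had 9.60, 12.2 and 14.6 CPM in imbibed libraries labelled erf4, against 29.7, 42.3 and 31.6 CPM in dry ones. The Col-0 libraries had 14.7, 13.4 and 11.7 CPM imbibed, against 40.9, 43.1 and 42.0 CPM dry. The 6 imbibed libraries again lay below the 6 dry ones. APX6 fell by 1.51 ± 0.17 in libraries labelled erf4 (adjusted p = 1.08e-05 by edgeR) and by 1.66 ± 0.17 in Col-0 (edgeR adjusted p = 5.74e-06). The summed seed markers lay lower in imbibed seeds too, at 63252 to 98493 CPM imbibed against 121280 to 148740 CPM dry in libraries labelled erf4, and at 80951 to 127940 CPM imbibed against 158250 to 217840 CPM dry in Col-0. Of the 9 markers 6 fell in each genotype, and all 9 fell in each genotype in the fit with the block. The summed markers of pollen, 14 genes, stood at 5.33 to 8.45 CPM imbibed against 34.0 to 63.4 CPM dry in libraries labelled erf4, and at 5.99 to 8.91 CPM imbibed against 232 to 403 CPM dry in Col-0. ACT4 and PRF5 were at 0 in all imbibed libraries labelled erf4, and ACT12, ADF10, PRF5 and SKS12 in all of imbibed Col-0. The part of either marker set in the falls of PER1 and APX6 was not tested.

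The promoter of PER1 is shown because this gene was the most abundant and fell most. The 250 bases before its annotated start (RefSeq TAIR10.1, chr1:17780179-17780428, plus strand) are printed 5′ to 3′, with the core of the ABA-responsive element in capitals.
PER1: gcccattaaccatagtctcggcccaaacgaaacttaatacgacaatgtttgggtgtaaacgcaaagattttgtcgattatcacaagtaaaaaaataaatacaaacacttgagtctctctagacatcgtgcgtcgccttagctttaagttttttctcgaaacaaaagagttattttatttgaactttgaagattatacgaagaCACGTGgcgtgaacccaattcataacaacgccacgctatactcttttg
The core was searched as ACGTG on both strands, and its pair of matches in PER1, at 48 and 47 bases before the start, overlap in 1 palindrome. This core stood in the same window of 4 of the 10 genes (CSD1, MSD1, APX1 and PER1) and of 22.9% of 27444 promoters of genes with an mRNA. APX6, whose level moved with that of PER1, had no match to it. The RY core CATGCA, searched on both strands and known from seed maturation promoters, stood in MSD1 alone of the 10 and in 8.43% of all promoters. The heat shock element core GAANNTTC, its own reverse complement, stood in APX1 alone and in 9.55% of all promoters. The core of the copper response element, GTAC, also its own reverse complement, stood in CSD1, CSD3, FSD1 and APX6 and in 34.3% of all promoters. A match is a description of the letters in the window and not evidence of binding. The windows of CSD3, MSD1, FSD3 and APX6 overlap the span of a neighbouring gene, so not all of their bases lie between genes.

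CSD1 and APX1 both encode enzymes of the cytosol, and in both of them replicate 3 stood at an end of every group. This held for CSD3 and FSD2 too, whose replicate 3 was the lowest of both groups labelled erf4 and the highest of both Col-0 groups. Over all genes tested, deviations of replicate 3 from its group mean correlated between states at 0.35 labelled erf4 and 0.215 in Col-0. Between genotypes they correlated at -0.277 in dry and -0.238 in imbibed seeds. The share of all genes with such an order was not counted. APX1 (AT1G07890; chromosome 1, 2437281 to 2439665, plus strand, 7 exons), the main cytosolic ascorbate peroxidase of leaves, had 29.7, 28.0 and 75.6 CPM in imbibed libraries labelled erf4, against 16.3, 9.41 and 53.8 CPM in dry ones. Its Col-0 values were 54.2, 42.8 and 24.8 CPM imbibed, against 22.1, 16.0 and 3.91 CPM dry. Replicate 3 labelled erf4 was the highest of its group in both states, and replicate 3 of Col-0 the lowest of its group in both states. Within each of the 6 same-numbered pairs the imbibed library was the higher, by 1.82-, 2.98- and 1.40-fold in libraries labelled erf4 and by 2.45-, 2.67- and 6.34-fold in Col-0. Against the spread within groups the change was not called, at 0.74 ± 0.69 in libraries labelled erf4 (adjusted p = 0.384 by edgeR) and 1.53 ± 0.71 in Col-0 (edgeR adjusted p = 0.0923). In libraries labelled erf4, where the replicate numbers were taken to pair the states, the fit with a block for them called it (0.95 ± 0.29, edgeR adjusted p = 0.0229). In Col-0, whose numbers were not taken as pairs, the same fit gave 1.72 ± 0.30 (edgeR adjusted p = 0.00181), and without both libraries labelled erf4 of number 3 the fit without the block called the change too (1.52, edgeR adjusted p = 0.0371).

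CSD1 (AT1G08830; chromosome 1, 2827060 to 2829315, plus strand, 8 exons) had its replicates in the same order as APX1 in both Col-0 groups. It had 57.0, 68.8 and 81.9 CPM in imbibed libraries labelled erf4, against 50.2, 53.4 and 110 CPM in dry ones. In Col-0 it had 123, 83.1 and 70.9 CPM imbibed, against 65.3, 54.5 and 27.8 CPM dry. Replicate 3 was the highest of both groups labelled erf4 and the lowest of both Col-0 groups. In libraries labelled erf4 the groups overlapped and the difference was -0.04 ± 0.35 (edgeR adjusted p = 0.934). In Col-0 CSD1 rose by 0.91 ± 0.36 without overlap, at an edgeR adjusted p of 0.0499, close to the threshold. The call did not hold without any one of 9 of the 12 libraries (edgeR adjusted p = 0.0502 to 0.182). It held without replicate 1 of dry Col-0, replicate 3 of the dry libraries labelled erf4 or replicate 3 of imbibed Col-0. The difference between the genotypes in this response was -0.94 ± 0.50 (95% interval -2.04 to 0.15, edgeR adjusted p = 0.546). CSD1 shares 41 exonic bases with emb2411 (AT1G08840) on the other strand, which had 524 to 1450 counts against 761 to 4890 of CSD1. The strand setting of the counting is not given in the sources used here.

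**Figure D3:**
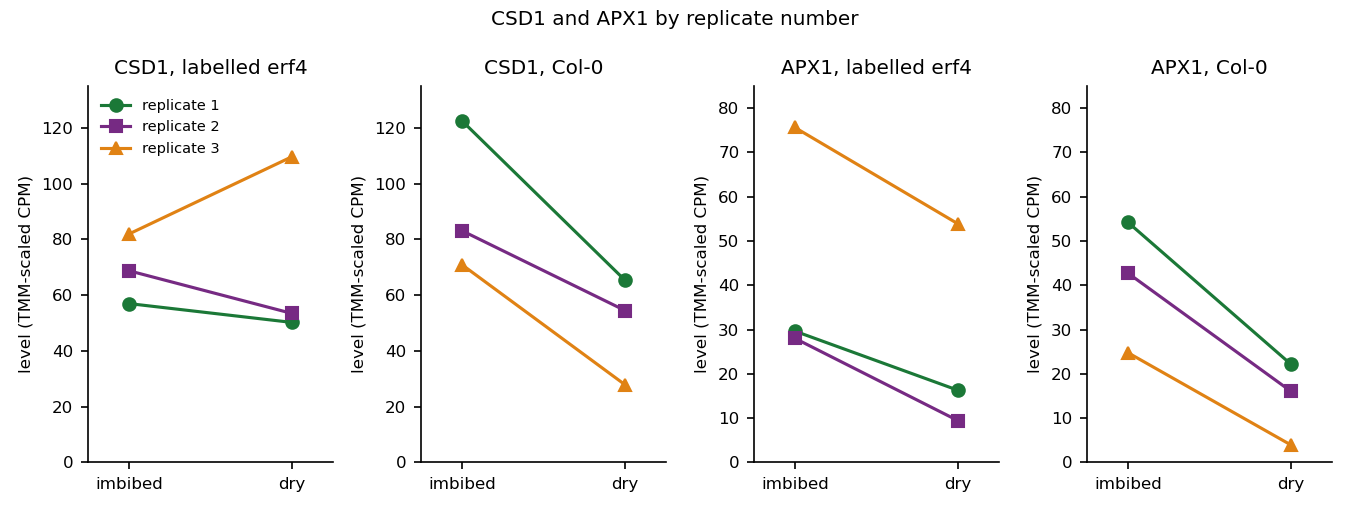
Levels of CSD1 and APX1 in TMM-scaled CPM (vertical axes) in imbibed and dry seeds, with a line for each replicate number, in libraries labelled erf4 and in Col-0. All APX1 lines lie higher in imbibed seeds, and replicate 3 is the highest line in libraries labelled erf4 (75.6 CPM imbibed, 53.8 CPM dry) and the lowest in Col-0 (24.8 CPM imbibed, 3.91 CPM dry).

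The promoters of CSD1 (RefSeq TAIR10.1, chr1:2826810-2827059, plus strand) and APX1 (chr1:2437031-2437280, plus strand) are shown with the same core in capitals. They were picked because replicate 3 stood at the same end of each group in both genes.
CSD1: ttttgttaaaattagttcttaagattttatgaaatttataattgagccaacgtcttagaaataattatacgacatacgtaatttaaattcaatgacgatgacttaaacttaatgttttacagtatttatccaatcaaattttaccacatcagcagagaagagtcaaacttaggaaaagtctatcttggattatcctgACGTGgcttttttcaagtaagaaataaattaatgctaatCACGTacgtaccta
APX1: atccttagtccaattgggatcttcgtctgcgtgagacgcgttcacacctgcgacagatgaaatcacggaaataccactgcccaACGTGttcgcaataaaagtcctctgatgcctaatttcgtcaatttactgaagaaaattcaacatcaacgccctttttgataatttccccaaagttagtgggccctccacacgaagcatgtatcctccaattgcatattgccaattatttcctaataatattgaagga
CSD1 held the core at 53 and 14 bases before the start, the nearer one overlapping the first of its pair of GTAC matches (11 and 7 bases before the start). APX1 held it at 167 bases, with the heat shock element core at 116 bases.

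CSD1, CSD2 and the chaperone CCS, which loads copper into the CSD enzymes, are known targets of the microRNA miR398, which accumulates when copper is scarce. The mature 3p sequences are printed 5′ to 3′ with the seed, bases 2 to 8, in capitals, and the miR398c-3p sequence is that of miR398b-3p (RefSeq TAIR10.1; chr2:1041012-1041032, chr5:4691107-4691127 and chr5:4694778-4694798, all on the plus strand).
miR398a-3p: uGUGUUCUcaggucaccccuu
miR398b-3p: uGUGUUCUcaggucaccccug
The ungapped window of 21 bases with the best pairing in the mRNA is shown for each of these targets, with Watson-Crick paired bases in capitals.
CSD1: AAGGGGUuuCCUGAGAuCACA
CSD2: ugcGGGUGACCUGgGAAacau
CCS: AuuGGGaGACCUGgGAACACu
The CSD1 window lies in the 5′ UTR across an intron (chr1:2827177-2827685 from its first to its last base) and had 18 pairs, a number reached in 2 of 31342 genes (0.00638%). The CCS window lies in coding sequence (chr1:4267521-4267541, minus strand) and had 16 pairs and 1 G:U pair; 0.128% of genes reached 16 pairs. The CSD2 window, also in coding sequence (chr2:12015572-12015592, plus strand), had 13 pairs and 3 G:U pairs without a gap, a number of pairs that 28.4% of genes reached. APX6 also held a window with 16 pairs and 1 G:U pair in its coding sequence, reached in 0.112% of genes. The hairpin genes MIR398A, MIR398B and MIR398C had 0 to 8, 0 and 0 to 6 counts per library and were not tested. MIR398B shares 116 exonic bases with AT5G14550 on the other strand, which had 373 to 977 counts, and the strand setting of the counting is not given in the sources used here. Counts of precursors in such libraries say little of the mature microRNA.

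CSD2 (AT2G28190; chromosome 2, 12014412 to 12016569, plus strand, 8 exons) was the steadiest of the copper/zinc genes. It had 88.6, 88.0 and 85.4 CPM in imbibed libraries labelled erf4, against 111, 85.7 and 82.1 CPM in dry ones. The Col-0 libraries had 62.2, 86.5 and 70.5 CPM imbibed, against 88.9, 98.8 and 108 CPM dry. The states overlapped in libraries labelled erf4 (-0.09 ± 0.15, edgeR adjusted p = 0.626). In Col-0 they did not, and CSD2 fell by 0.43 ± 0.15 (edgeR adjusted p = 0.0242). It was no longer called without dry replicate 2 or 3 or imbibed replicate 1 or 3 of Col-0 (edgeR adjusted p = 0.0584 to 0.126), or with the suffix letter in the fit (edgeR adjusted p = 0.0943). CCS was called in libraries labelled erf4, at 103 ± 9.25 CPM imbibed against 134 ± 25.5 CPM dry (-0.37 ± 0.13, edgeR adjusted p = 0.0297), and not in Col-0, at 98.4 ± 3.59 CPM imbibed against 107 ± 5.21 CPM dry.

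CSD3 (AT5G18100; chromosome 5, 5987187 to 5988885, plus strand, 8 exons), the copper/zinc enzyme of peroxisomes, had 13.1, 10.3 and 8.73 CPM in imbibed libraries labelled erf4, against 24.9, 43.1 and 17.5 CPM in dry ones. Its Col-0 values were 14.5, 10.9 and 16.9 CPM imbibed, against 16.3, 18.3 and 26.1 CPM dry. The states did not overlap in libraries labelled erf4, where CSD3 fell by 1.41 ± 0.30 (edgeR adjusted p = 0.00157), and overlapped in Col-0 (-0.52 ± 0.30, edgeR adjusted p = 0.161). The difference between the genotypes in this response was -0.89 ± 0.42 (95% interval -1.80 to 0.02, edgeR adjusted p = 0.484). The value of CSD3 is uncertain. It shares 142 exonic bases with NCBP (AT5G18110) on the other strand, which had 2751 to 6468 counts per library against 434 to 1067 of CSD3, and 46 bases with AT5G02875, which had 2 to 40. NCBP fell upon imbibition too, with log2 fold changes of -1.301 in libraries labelled erf4 and -1.14 in Col-0 (edgeR adjusted p = 2.05e-06 and 6.12e-06), and its part in the CSD3 values was not tested.

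Of the iron and manganese genes, FSD3 and MSD1 lay higher in imbibed seeds. FSD3 (AT5G23310; chromosome 5, 7850444 to 7852534, plus strand, 8 exons), an enzyme of the plastid nucleoid, had 61.5, 53.8 and 48.7 CPM in imbibed libraries labelled erf4, against 40.0, 35.0 and 33.1 CPM in dry ones. In Col-0 it had 39.7, 38.9 and 43.4 CPM imbibed, against 36.4, 31.8 and 31.95 CPM dry. The states overlapped in neither genotype. FSD3 rose by 0.60 ± 0.12 in libraries labelled erf4 (adjusted p = 0.00104 by edgeR) and differed by 0.28 ± 0.12 in Col-0 (edgeR adjusted p = 0.0665). The Col-0 difference was called without dry replicate 1, imbibed replicate 1 or both of these libraries labelled erf4 (edgeR adjusted p = 0.0495, 0.0452 and 0.0232), and when the 6 Col-0 libraries were fitted alone (edgeR adjusted p = 0.0354). The responses of the genotypes differed by 0.32 ± 0.17 (edgeR adjusted p = 0.557).

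MSD1 (AT3G10920; chromosome 3, 3417940 to 3419892, plus strand, 6 exons), the manganese enzyme of mitochondria, had 117, 111 and 103 CPM in imbibed libraries labelled erf4, against 101, 74.3 and 87.5 CPM in dry ones. The Col-0 libraries had 103, 106 and 101 CPM imbibed, against 80.4, 91.7 and 77.7 CPM dry. Imbibed libraries lay above dry ones in each genotype, by 0.33 ± 0.12 in libraries labelled erf4 and 0.31 ± 0.12 in Col-0, on either side of the threshold (edgeR adjusted p = 0.0367 and 0.0512). The call in libraries labelled erf4 was lost without any one of 7 libraries, which were dry replicates 2 and 3 and imbibed replicates 1 and 2 labelled erf4 and all 3 of imbibed Col-0 (edgeR adjusted p = 0.0526 to 0.152), and with the 6 libraries labelled erf4 fitted alone (edgeR adjusted p = 0.116). In Col-0 the difference was called without dry replicate 2 of Col-0, dry replicate 1 or 2 labelled erf4 or imbibed replicate 1 labelled erf4 (edgeR adjusted p = 0.0257 to 0.0469), and with the 6 Col-0 libraries fitted alone (edgeR adjusted p = 0.0177).

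FSD2 (AT5G51100; chromosome 5, 20773235 to 20775739, minus strand, 6 exons), the partner of FSD3 in plastids, had 20.4, 21.5 and 18.2 CPM in imbibed libraries labelled erf4, against 24.9, 24.9 and 19.7 CPM in dry ones. Its Col-0 values were 15.1, 15.9 and 17.3 CPM imbibed, against 17.7, 20.8 and 24.6 CPM dry. It fell in Col-0, by 0.38 ± 0.15 (edgeR adjusted p = 0.0457), a call that was lost without any one of 8 libraries, those of dry Col-0 replicates 2 and 3 and all 6 imbibed ones (edgeR adjusted p = 0.058 to 0.2). In libraries labelled erf4 the states overlapped (-0.21 ± 0.15, edgeR adjusted p = 0.254). A stretch of 185 bases is 96.8% identical in AT4G00651, which had 0 to 9 counts per library against 569 to 980 of FSD2. FSD1 (AT4G25100; chromosome 4, 12884300 to 12887011, minus strand, 8 exons) had only 49 to 300 counts per library. Its levels were 6.25, 2.93 and 3.28 CPM in imbibed libraries labelled erf4, against 5.46, 2.38 and 4.27 CPM in dry ones. In Col-0 it had 1.65, 1.16 and 2.22 CPM imbibed, against 3.27, 1.93 and 2.41 CPM dry. The states overlapped in both genotypes, with differences of 0.03 ± 0.38 in libraries labelled erf4 and -0.60 ± 0.40 in Col-0 (edgeR adjusted p = 0.946 and 0.225).

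Between the genotypes no gene of the 10 was called. In imbibed seeds the test called 0.0212% of all genes (0.0159% higher, 0.00529% lower), and in dry seeds 1.1% (0.519% higher, 0.577% lower). At an unadjusted p under 0.05 there were 2 of the 10 genes in imbibed seeds (FSD1 and FSD3) and 1 in dry seeds (PER1), where 2827 and 2948 of all 18897 genes passed that threshold, so these counts lay near the background. DESeq2 called none of the 10 in imbibed seeds, where it called 477 of all genes, and PER1 in dry seeds, where it called 936. With the values by library given above, FSD1, FSD2 and FSD3 were higher in all 3 imbibed libraries labelled erf4 than in all 3 of imbibed Col-0. That is 3 of the 10 genes without overlap in this direction, which holds for 13.1% of all genes, and none in the other, which holds for 12.7% (25.8% in either). The differences were 1.31 ± 0.39 for FSD1 (2.47-fold, 95% interval 0.46 to 2.16 on the log2 scale, edgeR adjusted p = 0.186), 0.43 ± 0.12 for FSD3 (edgeR adjusted p = 0.172) and 0.31 ± 0.15 for FSD2 (edgeR adjusted p = 0.349). These iron enzymes work wholly or partly in plastids, and 7 markers of green tissue summed to 116 to 167 CPM in imbibed libraries labelled erf4 against 66.5 to 89.4 CPM in imbibed Col-0. RBCS1A made up most of these sums, at 114 ± 24.5 CPM imbibed in libraries labelled erf4 against 51.4 ± 13.6 CPM in imbibed Col-0. PSBR stood at 19.6 ± 2.58 CPM in imbibed libraries labelled erf4 against 19.4 ± 0.674 CPM in imbibed Col-0, and LHCB3 at 0.259 ± 0.0477 CPM in imbibed libraries labelled erf4 against 0.465 ± 0.269 CPM in imbibed Col-0 (SD, n = 3). Of these markers 5 had enough counts for a test and none was called, with CA1 and LHCB2.1 at 0 in all imbibed libraries labelled erf4. In dry seeds the green tissue markers summed to 122 to 245 CPM in libraries labelled erf4 against 80.2 to 103 CPM in Col-0. There FSD1, FSD2 and FSD3 each overlapped between the genotypes. The part of these markers in the FSD values was not tested. Among the other 7 genes the differences in imbibed seeds ran from -0.41 (CSD1) to 0.26 (CSD2), with edgeR adjusted p between 0.428 and 0.955.

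In dry seeds PER1 was lower in all 3 libraries labelled erf4 than in all 3 of Col-0, by 0.55 ± 0.19 on the log2 scale (95% interval -0.96 to -0.13). This was not called by edgeR (adjusted p = 0.183) and was called by DESeq2 (-0.56, adjusted p = 0.035), with adjusted p between 0.035 and 0.399 in the alternatives run. PER1 was 1 of the 10 genes without overlap in this direction, which holds for 10.5% of all genes, and no gene of the 10 was so in the other, which holds for 8.18% (18.7% in either). The seed markers summed to 121280 to 148740 CPM in dry libraries labelled erf4 against 158250 to 217840 CPM in dry Col-0, with none of the 9 called. CRA1 and CRC made up most of these sums, and 3 of the other 7 markers had the higher mean in dry libraries labelled erf4. These were CRU2 (2596 CPM labelled erf4 against 1965 CPM in Col-0), OLEO2 (2837 CPM labelled erf4 against 2589.8 CPM in Col-0) and SESA4 (247 CPM labelled erf4 against 167 CPM in Col-0). The pollen markers summed to 34.0 to 63.4 CPM in dry libraries labelled erf4 against 232 to 403 CPM in dry Col-0, with 7 of 14 called lower. Their part in the PER1 value was not tested. The other 9 genes overlapped between the genotypes in dry seeds. Their differences ran from -0.28 (APX6) to 0.92 (APX1), where the 95% interval of APX1, -0.63 to 2.47, was the widest. The APX1 difference rested on dry replicate 3 labelled erf4, and was -0.13 without that library.

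The superoxide dismutase genes differed in their share of the pooled transcript, given here as a share of the summed RPKM of all 7. The pool averaged 337 ± 3.41 RPKM in imbibed libraries labelled erf4, 333 ± 22.6 RPKM in imbibed Col-0, 335 ± 18.5 RPKM in dry libraries labelled erf4 and 296 ± 10.7 RPKM in dry Col-0. Every library of dry Col-0 (284 to 305 RPKM) lay below every library of the other groups (311 to 356 RPKM). CSD1, CSD2 and MSD1 together made up most of it. MSD1 held 30.2 ± 1.65% imbibed against 24.1 ± 2.89% dry in libraries labelled erf4, and 28.7 ± 1.77% imbibed against 26.0 ± 1.53% dry in Col-0. CSD3 held 4.23 ± 0.831% imbibed against 11.6 ± 6.02% dry in libraries labelled erf4, and 5.68 ± 1.44% imbibed against 9.18 ± 2.68% dry in Col-0. FSD3 held 12.8 ± 1.38% imbibed against 8.53 ± 0.926% dry in libraries labelled erf4, and 9.71 ± 1.18% imbibed against 8.93 ± 0.719% dry in Col-0. CSD1 varied most between libraries, from 11.2% in dry Col-0 replicate 3 to 39.4% in imbibed Col-0 replicate 1. These shares follow from the levels given above and were not tested on their own.

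**Figure D4:**
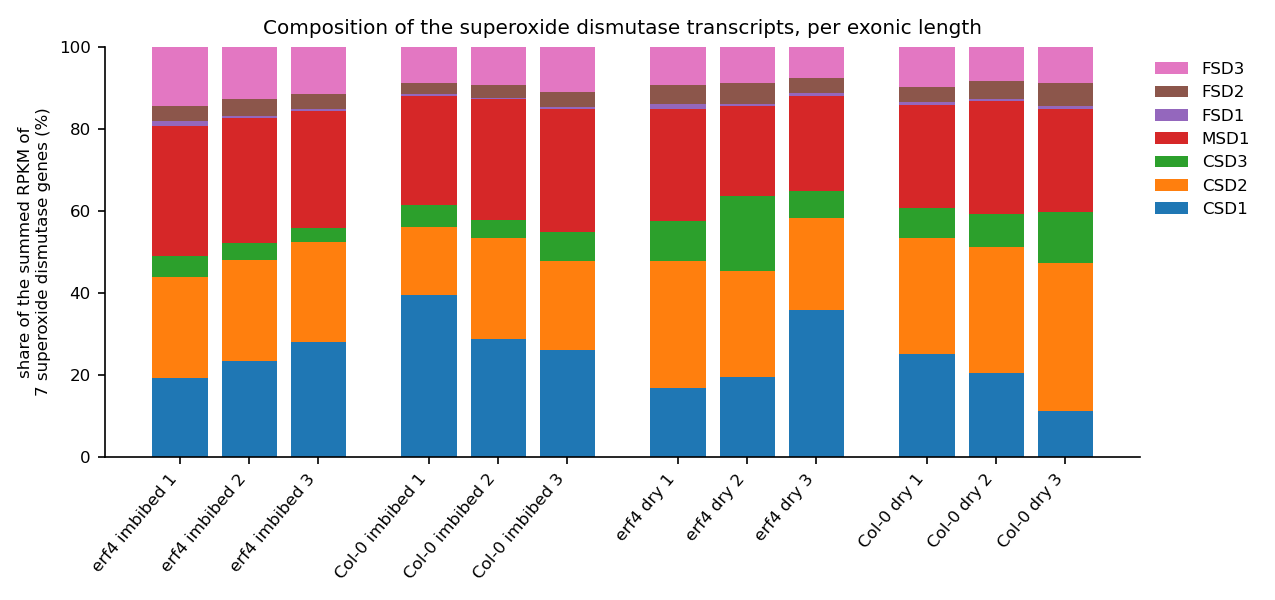
Share of each gene in the summed RPKM of the 7 superoxide dismutase genes (vertical axis, %), with 1 bar a library, by group and replicate number. CSD1, CSD2 and MSD1 fill most of each bar, FSD1 stays at or below 1.18%, and the CSD1 share ranges from 11.2% to 39.4%.

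The 7 genes were not the whole of the superoxide dismutase transcript. AT3G56350, annotated as an iron/manganese superoxide dismutase family protein, was more abundant than all 7 together in every library. Added to the pool, it held 62.3 ± 5.50% in imbibed libraries labelled erf4, 68.2 ± 5.68% in imbibed Col-0, 86.8 ± 2.97% in dry libraries labelled erf4 and 88.9 ± 1.21% in dry Col-0. It had 446 to 696 CPM in imbibed libraries labelled erf4, against 1765 to 2679 CPM in dry ones. Its range in Col-0 was 580.5 to 856 CPM imbibed, against 2119 to 2511 CPM dry. Like PER1 and APX6 it lay lower in every imbibed library, with log2 fold changes of -1.99 ± 0.23 in libraries labelled erf4 and -1.71 ± 0.23 in Col-0 (edgeR adjusted p = 1.07e-05 and 3.72e-05). With this gene in, the pool averaged 908.5 ± 145 RPKM in imbibed libraries labelled erf4, against 2601 ± 489 RPKM in dry ones. In Col-0 it averaged 1064 ± 134 RPKM imbibed, against 2690 ± 220.4 RPKM dry.

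The members were also compared by the shape of their profile, as the root mean square difference between log2 CPM values centred on each gene's mean over the 12 libraries. The closest pairs among the 10 were CSD2 with FSD2 (0.161), MSD1 with FSD3 (0.177) and APX6 with PER1 (0.317). This measure is not scaled to how much a gene varied. Over the 12 libraries the SD was 0.222 for CSD2, 0.235 for FSD2, 0.202 for MSD1 and 0.289 for FSD3. It was 0.822 for APX6 and 1.00 for PER1. Among all genes tested, the profiles nearest to PER1 were those of AT5G11460 (0.142) and SYN2 (0.154), and nearest to APX6 those of AT4G03230 (0.118) and ASD1 (0.13), where the median gene lay at 1.13 from PER1 and 0.975 from APX6. AT1G68440 (0.387) and HAK5 (0.4) were nearest to APX1, and AT1G70770 (0.228) and AT5G58620 (0.236) to CSD1. CRF8 (0.202) and AT1G04985 (0.202) were nearest to CSD3, and AT3G52390 (0.326) and AT2G40085 (0.377) to FSD1. For the members that varied little the nearest were SWC2 (0.108) and AT5G17440 (0.12) for CSD2, and AT5G50310 (0.0721) and FRS1 (0.0756) for MSD1. They were AT5G18140 (0.0845) and PGK1 (0.097) for FSD2, and AT3G45750 (0.089) and ALDH6B2 (0.1) for FSD3. All these profiles share the same 12 libraries and the contrast of dry and imbibed seeds.

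The enzymes that work with the 10 genes were examined as 9 lists with 57 genes, of which 52 had enough counts for a test. In libraries labelled erf4, imbibition raised 13 and lowered 19 of the 52, with a median log2 fold change of -0.10, where 55.5% of all genes were called and their median was 0.04. In Col-0 it raised 9 and lowered 14, with a median of -0.05, where 52.5% of all genes were called and their median was 0.05. Between the genotypes 1 of the 52 was called in dry seeds, where 1.1% of all genes were called (0.577% lower). It was the catalase gene CAT1, which was lower in libraries labelled erf4 (122 ± 26.3 CPM against 230.1 ± 46.4 CPM in Col-0). Its log2 fold change was -0.92 ± 0.18 (edgeR adjusted p = 0.0329). None of the 52 was called in imbibed seeds, where 0.0212% of all genes were, or for the difference of the responses. The fit with the block within each genotype called DHAR2 (-0.86 ± 0.21, edgeR adjusted p = 0.0403) and VTC2, a gene of ascorbate synthesis (-0.53 ± 0.13, edgeR adjusted p = 0.0497), for that difference, where it called 3.14% of all genes.

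Of the 6 other ascorbate peroxidase genes 2 rose and 2 fell in each genotype. SAPX, the enzyme of the plastid stroma and mitochondria, rose most, to 86.7 ± 7.21 CPM imbibed against 20.9 ± 3.50 CPM dry in libraries labelled erf4 (2.05 ± 0.14) and to 72.7 ± 5.62 CPM imbibed against 20.5 ± 1.82 CPM dry in Col-0 (1.82 ± 0.14; edgeR adjusted p = 2.42e-07 and 5.47e-07). APX4, a lumenal protein related to the family, fell most (-3.68 ± 0.41 and -4.59 ± 0.45 in the same order of genotypes, edgeR adjusted p = 8.07e-06 and 3.3e-06). Its levels were low, at 0.303 ± 0.160 CPM imbibed against 3.94 ± 0.189 CPM dry in libraries labelled erf4. In Col-0 they were 0.129 ± 0.0518 CPM imbibed against 3.21 ± 0.164 CPM dry, where 3 counts corresponded to 0.0604 to 0.121 CPM. Of the 9 tested genes that recycle ascorbate and glutathione 2 rose and 1 fell in each genotype. DHAR2, a dehydroascorbate reductase, rose by 1.83 ± 0.27 in libraries labelled erf4 and 2.66 ± 0.28 in Col-0, and its relative DHAR1 fell by 0.78 ± 0.18 and 0.89 ± 0.18 (edgeR adjusted p at most 0.00216). Of the 8 genes of ascorbate and glutathione synthesis 2 rose and 4 fell in libraries labelled erf4, where 1 rose and 2 fell in Col-0. VTC4 rose most in libraries labelled erf4 (2.67 ± 0.56, adjusted p = 0.00125 by edgeR) and GME in Col-0 (0.68 ± 0.18, edgeR adjusted p = 0.00584). The level of VTC4 was low, at 2.91 ± 1.19 CPM imbibed against 0.452 ± 0.254 CPM dry in libraries labelled erf4. VTC5, which encodes a GDP-L-galactose phosphorylase, fell most in both (-1.36 ± 0.23 and -1.11 ± 0.23, edgeR adjusted p = 0.00028 and 0.00129).

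Of the 8 other peroxiredoxin genes 3 rose and 1 fell in libraries labelled erf4, where 1 rose and 1 fell in Col-0. In the fit with the block, 3 rose and 5 fell in libraries labelled erf4, where the replicate numbers were taken to pair the states. That fit called 62.8% of all genes there (32.3% higher, 30.5% lower). In Col-0 the block gave 3 rises and 4 falls, where it called 60.1% of all genes. Without the block, the largest rise was that of 2CPB, a plastid peroxiredoxin, in libraries labelled erf4 (2.097 ± 0.56, adjusted p = 0.00598 by edgeR) and that of PRXQ in Col-0 (0.77 ± 0.31, edgeR adjusted p = 0.0499). The level of 2CPB was low, at 4.56 ± 0.848 CPM imbibed against 1.05 ± 0.772 CPM dry (0.323 to 1.86 CPM) in libraries labelled erf4. AT1G60740, annotated as a thioredoxin superfamily protein, fell by 4.19 ± 0.54 in libraries labelled erf4 and 4.81 ± 0.52 in Col-0 (edgeR adjusted p = 4.04e-05 and 1.2e-05). It had 0.413 ± 0.227 CPM imbibed against 7.63 ± 3.63 CPM dry in libraries labelled erf4. In Col-0 it had 1.06 ± 0.472 CPM imbibed against 30.0 ± 14.9 CPM dry. Of the 4 thioredoxin reductase and sulfiredoxin genes 2 rose and 1 fell in libraries labelled erf4, and 3 rose and 1 fell in Col-0. NTRB rose most (0.96 ± 0.14 and 1.58 ± 0.14) and SRX, the sulfiredoxin that repairs oxidised peroxiredoxins, fell (-1.16 ± 0.22 and -1.13 ± 0.22; edgeR adjusted p at most 0.000798). Of the 8 glutathione peroxidase-like genes 1 rose and 4 fell in libraries labelled erf4 and 3 fell in Col-0. The block gave 2 rises and 4 falls in libraries labelled erf4 and 3 falls in Col-0. GPX4 fell most (-5.26 ± 0.60 and -4.90 ± 0.60, edgeR adjusted p = 1.25e-05 and 2.23e-05), and GPX3 rose in libraries labelled erf4 (0.66 ± 0.17, edgeR adjusted p = 0.0039). Of the 3 catalase genes CAT1 and CAT3 fell in each genotype, most CAT1 (-1.06 ± 0.19 and -1.26 ± 0.19, edgeR adjusted p = 0.000307 and 8.58e-05). Of the 4 genes for further dismutase or its assembly, 1 rose and 2 fell in libraries labelled erf4 and 1 fell in Col-0. The rise was that of the chaperonin gene CPN20 (0.39 ± 0.15, edgeR adjusted p = 0.0387), whose states overlapped, and the largest fall that of AT3G56350. Of the 2 tested genes of the copper response, SPL7, the transcription factor of copper deficiency, fell in each genotype (-0.47 ± 0.11 and -0.54 ± 0.11) and the transporter gene COPT1 in libraries labelled erf4 (-0.46 ± 0.12; edgeR adjusted p at most 0.00596). APX4 and CPN20 are uncertain, since each shares exonic bases with a gene on the other strand, APX4 85 with AT4G09000 (1858 to 6396 counts) and CPN20 70 with AT5G20730 (1369 to 2481 counts).

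**Figure D5:**
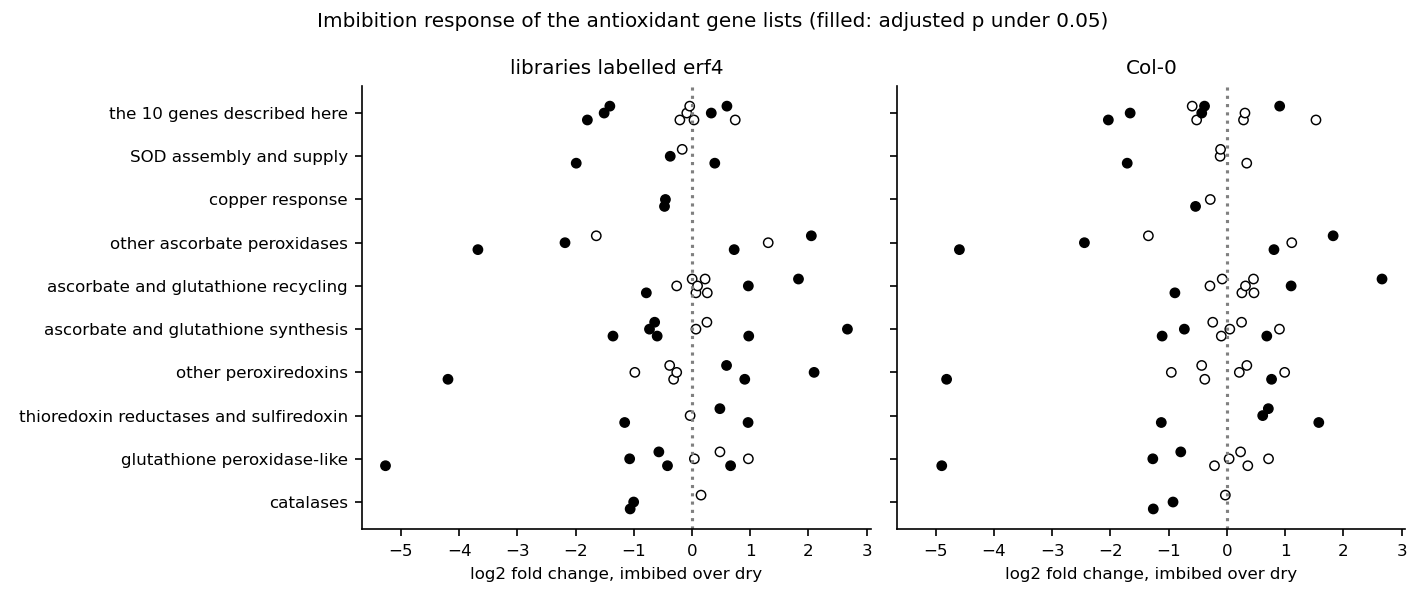
Log2 fold changes of imbibed over dry seeds (horizontal axis) for the 10 genes and the 9 lists around them, with 1 point a gene, in libraries labelled erf4 and in Col-0. Filled points passed an adjusted p under 0.05, and most lists hold genes that rose beside genes that fell.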

How the data were processed

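The 12 libraries were grouped by their titles. The authors deposited raw counts per gene in a single table with exonic lengths, per the file headers. The submitters' processing notes name fastp 0.20.0, HISAT2 2.1.0, featureCounts 2.0.1, DESeq2 1.34.0 and the build TAIR10. Their parameters are not given in the sources used here.

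Low counts were filtered by filterByExpr, which left 18897 genes. All libraries entered 1 quasi-likelihood model of 4 group means in edgeR 4.0.16 (R 4.3.3; limma 3.58.1; TMM scaling, robust, 8 residual degrees of freedom). A call needed a p below 0.05 after Benjamini-Hochberg adjustment across every gene tested. DESeq2 1.42.0, other filters and scalings, thresholds, blocks and left-out libraries were alternatives. The fit was checked on simulated data.

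The members and lists were chosen with earlier results of these data known. All 10 genes are named. Of the other lists, genes called between genotypes and the largest called rise and fall of each imbibition contrast are named, as are the 2 profiles nearest to each member. CCS, COPT1, CAT3 and the overlapping or similar genes (NCBP, emb2411, AT4G00651, AT5G02875, AT4G09000, AT5G20730, AT5G14550), VTC2 and single marker genes were named after their values were seen. Copies were sought with BLAST 2.17.0.

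Gene spans matched RefSeq TAIR10.1 for 32531 of 32548 nuclear genes (99.95%). Replicate numbers were taken to pair the states in libraries labelled erf4, since deviations from group means correlated at 0.341 to 0.35 between same-numbered libraries. Between the other numbers there the correlations were -0.214 to -0.115. Replicate 2 labelled erf4 and replicate 3 of Col-0 correlated as highly, at 0.354 in dry and 0.344 in imbibed seeds. A value of this size therefore does not by itself mark a pair. The labels do not state such a pairing. ERF4 itself ran in the same order of replicate numbers in both groups labelled erf4, and its part in these correlations was not tested. In Col-0 the correlations were 0.0655 to 0.215 between same-numbered libraries and -0.15 to 0.0535 between the others. The numbers were not taken as pairs there, since the rule asked for more than 0.1 in every same-numbered pair. The ± of a share is the SD over the 3 libraries of a group. The floor of 3 counts is a fixed number and covers no spread between libraries.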

Additional observations from a re-analysis of the deposited data

How the results depend on the processing

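Across 24 or 25 alternatives for each contrast, 73 of 1220 recomputed fold changes of the 10 genes moved over the threshold (54 lost a call, 19 gained one). The sign changed in 31, none of them of a called gene. PER1 and APX6 in both genotypes, and CSD3 and FSD3 in libraries labelled erf4, had an adjusted p under 0.05 in every alternative, where FSD3 fell short of a log2 fold change of 1.

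Of the 10 genes, 5 were called for imbibition in Col-0. The number was 3 with no filter on low counts, 3 with the replicate block over all 12 libraries, 2 at an adjusted p under 0.01, 2 at a log2 fold change of at least 1, and 8 with the replicate block within each genotype, which was chosen after seeing the data and added MSD1 (adjusted p = 0.0124), FSD3 (0.0204) and APX1 (0.00181). That fit called 3 rises and 4 falls among the other peroxiredoxins in Col-0. Leaving out single libraries gave 2 to 6: 2 without dry replicate 3 or imbibed replicate 1 of Col-0, and 3 without dry replicate 2 or imbibed replicate 2 or 3 of Col-0 or imbibed replicate 2 or 3 labelled erf4. Over all genes the number called in Col-0 was 9915. It was 5365 at a log2 fold change of at least 1, 11352 with the block within each genotype, and 8330 to 10369 without single libraries. In libraries labelled erf4 the number of members called was 5, with 3 at a log2 fold change of at least 1 and 4 to 5 without single libraries. Over all genes it was 10496 there, with 5989 at a log2 fold change of at least 1 and 9422 to 10584 without single libraries. DESeq2 called 1 member between genotypes in dry seeds. The cause was not tested.

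Over all genes the number called between genotypes was 207 in dry seeds (37 to 936 over the alternatives), 4 in imbibed seeds (4 to 477) and 0 for the difference of the responses (0 to 594, the highest with the block within each genotype, which called no member). Genotype contrasts are not paired by number, with same-number correlations of -0.277 to 0.0683 in dry and -0.238 to 0.0766 in imbibed seeds. Few libraries and a biological coefficient of variation of 0.241 limit these contrasts, and FSD1 rests on the fewest counts.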
